A study of Mus musculus with 21 samples.

Results

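H2Bub1, histone H2B carrying a single ubiquitin, was mapped as broad domains in mouse J1 embryonic stem (ES) cells, and 393 of the 2937 ES domains (13.4%, exact 95% interval 12.2 to 14.7) made up the set described here. These domains were longer than 2000 bp, overlapped by at least 1 bp an H2Bub1 domain of ES cells that overexpress Fbxl19, and overlapped no domain listed for cells differentiated for 4 days. They are called day-4-absent domains below. They were chosen by measured values, the ES length and the overlap with the overexpression and day 4 lists, so presence or absence there, length and ES score are given as description only. Absence from a list is not a measured loss of signal, since a domain can fall under the calling threshold, and no read counts were used here.

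H2Bub1 is placed by the E3 ligase Rnf20 with its partner Rnf40 and is known to spread over the bodies of transcribed genes, where it accompanies elongating RNA polymerase II. Fbxl19 is an F-box protein whose CXXC zinc finger binds unmethylated CpG, and it is known to sit at CpG islands, which mark many promoters. By its title, the study is about Fbxl19 bringing Rnf20 to CpG islands and promoting H2Bub1 there.

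The study held 21 samples in 12 groups, and 8 combined or single lists of domains or peaks on the mm9 build were used. H2Bub1 was precipitated with an antibody from OE-high ES cells (3 samples), cells differentiated for 4 days (2 samples), ES cells with Fbxl19 knocked down (2 samples), knockdown cells differentiated for 4 days (2 samples) and unmodified ES cells (3 samples). OE-high cells came from a clone with tagged Fbxl19 at more than 5-fold the endogenous level and OE-low cells from a clone below that level, and streptavidin beads pulled down Fbxl19 from each (2 samples each). Rnf20 was pulled down the same way from a single sample. The OE-low and Rnf20 cells contained the biotin ligase BirA, per the labels, and the other 4 samples were input DNA with no list used here. All cells were J1, undifferentiated cultures were kept in medium with leukemia inhibitory factor, and the labels do not say how cells were knocked down or differentiated. The labels name no list for the last of the 3 OE-high H2Bub1 samples, and those of the OE-high Fbxl19 samples name the H2Bub1 list, so their peaks were matched to them by the name of the list.

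The H2Bub1 lists held 7216 domains in OE-high cells, 5125 at day 4, 1813 in the knockdown, 1090 in the differentiated knockdown and 2937 in ES cells. Each track name holds a figure followed by M: 46 in OE-high, 36 at day 4, 46 in the knockdown, 41 in the differentiated knockdown and 60 in ES cells. What it counts is not stated, and depth per sample is unknown. Lists are named as combined, so no spread between replicates and no p-value could be given. Intervals are exact Clopper-Pearson 95% intervals over domains, which cover counting error only, and domains of 1 list are not replicates of a condition.

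The rule first kept 2561 of the 2937 ES domains for length. Of these, 2401 (93.8%) met an OE-high domain, and 393 of the 2401 (16.4%, interval 14.9 to 17.9) met no day 4 domain. Among all ES domains over 2000 bp, 20.9% met no day 4 domain. The other 2008 of the 2401 met both lists and serve as the comparison below under the name retained domains. A further 142 ES domains over 2000 bp met neither list, and 18 met the day 4 list only. Domain ends lie on a grid of 200 bp, and the shortest day-4-absent domains, 15 of them, measured 2200 bp. Just under the limit, 8 ES domains of 2000 bp met the same overlap rule, and 69 domains at or under the limit did so in all. Examples inside the limit were 19309200 to 19311399 (ES score 17.8, with 2 Rnf20 peaks) and 117888000 to 117890199 (ES score 8.50) on chromosome 11, and 8999200 to 9001399 on chromosome 14 (ES score 7.79). Just outside lay 32506600 to 32508599 (ES score 13.2, with 2 Rnf20 peaks) and 37124000 to 37125999 (ES score 12.1) on chromosome 17, and 63561400 to 63563399 on chromosome 2 (ES score 8.73).

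Day-4-absent domains were shorter than retained domains at the median and had a slightly lower median ES score. Their length had a median of 6000 bp (quartiles 3800 and 13400, range 2200 to 252600), against 10800 bp in retained domains (quartiles 5200 and 25450). Together they covered 7.32 Mb, against 47.5 Mb in retained domains. The authors' ES score, whose formula is not given and which is above 7 in each line, had a median of 8.88 (range 7.0 to 36.7) in day-4-absent domains, against 9.38 in retained domains. The share of ES domains in the OE-high list that were absent at day 4 was 25.5% among those over 2000 and up to 4000 bp and 20.1% from there to 10000 bp. It was 9.22% from 10000 to 20000 bp and 11.4% above. With these domains ranked by ES score and cut into 4 equal classes, 20.6% of the lowest class were absent at day 4, 16.7% and 16.8% of the middle classes and 11.3% of the top class.

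Few day-4-absent domains had a day 4 domain within 5 kb. The gap to the nearest day 4 domain had a median of 104 kb (quartiles 46.8 and 370.0 kb), and only 6 of the 393 (1.53%) had a day 4 domain within 5 kb. Within 50 kb it was 26.2% and within 100 kb 48.1%. Gaps were not summarised for a comparison set. The closest day-4-absent domain was 103824400 to 103827599 on chromosome 12, which abutted a day 4 domain without sharing a base. Next came 98855600 to 98861799 on chromosome 11, at 0.4 kb, and 183741000 to 183745999 on chromosome 1, at 0.6 kb. On the other side of the rule, the retained domains with the smallest shared stretch were 48607600 to 48610799 on chromosome 11 (1000 bp shared), 132832400 to 132834999 on chromosome 4 (1200 bp) and 21839000 to 21842399 on chromosome 13 (1400 bp). Of the retained domains, 5.13% were covered to less than 50% by day 4 domains and 43.8% were covered in full.

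In OE-high cells the partner domain was longer than the ES domain for 303 of the 393 day-4-absent domains. These partners ranked lower at the median than those of retained domains. OE-high domains covered 209 of the 393 in full (53.2%), 157 in larger part and 27 (6.87%) to less than 50%. The OE-high partner had a median length of 27600 bp, 2.88 times that of its ES domain at the median, against 32100 bp and 1.90 times for retained domains. There were 371 distinct partners with a median score of 10.5, at the 39.8th percentile of the OE-high list, against 1855 partners with a median score of 15.8, at the 76.7th percentile, for retained domains. A partner met a day 4 domain elsewhere along its length for 30 of the 393 (7.63%), and for 21 (5.34%) it also held a retained domain. These OE-high values belong to a list the rule used and are given without a test.

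Fbxl19 knockdown left 149 of the 393 day-4-absent domains on the ES knockdown list (37.9%, interval 33.1 to 42.9), against 61.6% of retained domains (interval 59.4 to 63.7). Of all ES domains over 2000 bp, 55.5% met that list. Of the 142 ES domains that met neither the OE-high nor the day 4 list, 19.7% did. The difference between day-4-absent and retained domains was -23.7 percentage points (interval -29.0 to -18.2). It was -19.8 points with retained domains weighted to the lengths of the day-4-absent ones. It was seen in each length class: 29.7% against 46.6% up to 4000 bp, 33.5% against 57.6% up to 10000 bp, 52.3% against 66.3% up to 20000 bp, and 50% against 70.2% above. In the class from 10000 to 20000 bp the intervals of both shares overlapped. Where a day-4-absent domain was listed in the knockdown, its partner there was of about the same length, with a median ratio of 1.02, and covered 96.4% of it at the median. The same ratio was 1.02 for retained domains, with 98.2% covered. With the OE-high and day 4 lists limited to as many top-scoring domains as the ES list holds, the day-4-absent share was 57.4% and the difference -11.6 points.

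In differentiated knockdown cells 15 of the 393 day-4-absent domains were listed (3.82%, interval 2.15 to 6.22), against 36.8% of retained domains (interval 34.6 to 38.9). The figure for all ES domains over 2000 bp was 29.9%. The difference was -32.9 points (interval -35.7 to -29.7). Both sets were chosen by a list of the same mark at the same day 4. This difference is therefore not independent of the rule and is given as description only. Between the knockdown lists, 13 day-4-absent domains (3.31%) met both, 136 (34.6%) the ES knockdown list alone, 2 (0.509%) the differentiated knockdown list alone and 242 (61.6%) neither. For retained domains these were 29.1%, 32.5%, 7.67% and 30.7%, and for all ES domains over 2000 bp 23.4%, 32.1%, 6.52% and 38.0%. The day-4-absent domains listed in both knockdowns had a median ES score of 13.0, against 8.46 for those in neither.

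**Figure D1:**
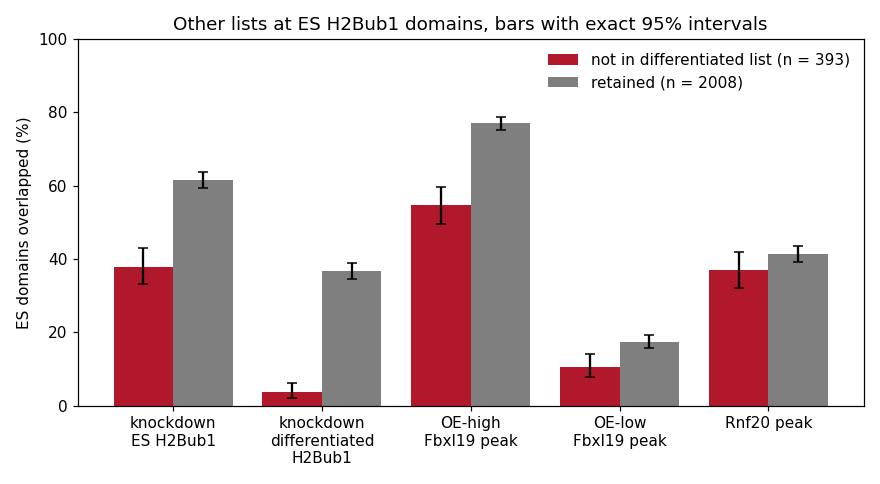
Share of ES H2Bub1 domains over 2000 bp (vertical axis, percent) that overlap each of 5 other lists, for the 393 domains absent from the day 4 list (red) and the 2008 retained domains (grey). Bars are shares and whiskers exact 95% intervals over domains; the red bar is the lower one for both knockdown lists and both Fbxl19 lists, while the intervals overlap for Rnf20.

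The knockdown list divided the 393 domains by score and length, and less clearly by Rnf20 and OE-low Fbxl19, but not detectably by OE-high Fbxl19. The 149 day-4-absent domains on the ES knockdown list had a median score of 9.81 and a median length of 7200 bp, against 8.46 and 5600 bp in the 244 that were not. The difference in score was 1.35 (interval 0.790 to 2.10) and that in length 1600 bp (interval 434 to 4825). OE-high Fbxl19 was found in 54.4% of those on the knockdown list and in 54.9% of the others, a difference of -0.556 points (interval -11.0 to 9.87). Rnf20 peaks lay in 44.3% and 32.4%, a difference of 11.9 points (interval 1.66 to 22.1). OE-low Fbxl19 peaks lay in 15.4% and 7.79%, a difference of 7.65 points (interval 0.872 to 15.1). These shares were not matched for length. In day-4-absent domains above 20000 bp, Rnf20 stood at 51.25% and OE-low Fbxl19 at 22.5%, against 34.2% and 5.41% up to 4000 bp. A stretch of chromosome 4, described below, held 13 of the domains, 12 with Rnf20 and 11 on the ES knockdown list. The Rnf20 difference was not recomputed without that stretch.

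**Figure D2:**
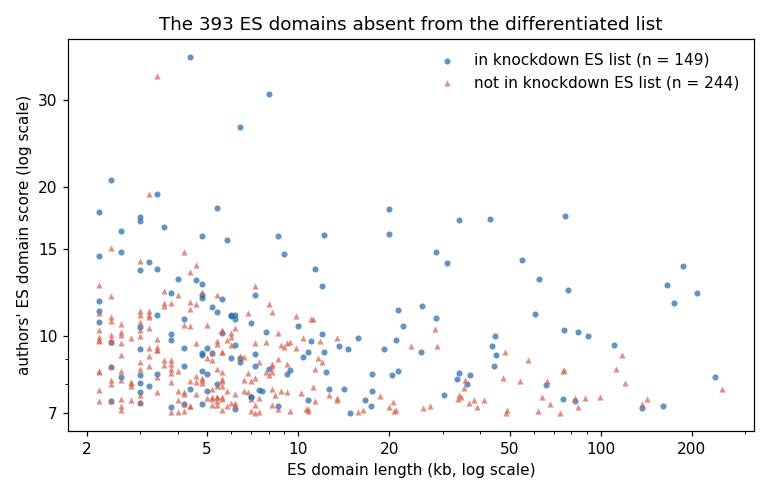
ES domain length (horizontal, kb, log scale) and the authors' ES score (vertical, log scale) of the 393 day-4-absent domains, 1 point each, with circles for the 149 on the ES knockdown list and triangles for the 244 not on it. Circles take most of the places above a score of 15, and triangles crowd the lower edge near 7.

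The 5 highest-scoring day-4-absent domains were 2400 to 8000 bp long and carried OE-high Fbxl19 near an end. The domain from 78325200 to 78329599 on chromosome 9 had the highest ES score of the set (36.7, 4400 bp). It held 2 OE-high and 2 OE-low Fbxl19 peaks and 3 Rnf20 peaks, and it was listed in both knockdowns, with a score of 8.10 in knockdown ES cells and 10.3 in differentiated knockdown cells. Its OE-high partner ran over 41000 bp with a score of 9.16 in that list. Whether scores of different lists share a scale is not known, so they are not compared here. The domain from 44142800 to 44146199 on chromosome 9 (ES score 33.5) held 1 peak of each protein, Fbxl19 (OE-high) and Rnf20, and was in neither knockdown list. On chromosome 4 the domain from 55537400 to 55545399 (ES score 30.9, 8000 bp) held 3 Rnf20 peaks beside 2 OE-high Fbxl19 peaks. It too was listed in both knockdowns, over 20600 bp in knockdown ES cells and 2400 bp in differentiated knockdown cells, and its nearest day 4 domain lay 132 kb away. The next were 121312400 to 121318799 on chromosome 1 (ES score 26.4) and 100215000 to 100217399 on chromosome 11 (ES score 20.7), each with 1 OE-high Fbxl19 peak, no Rnf20 peak and a place on the ES knockdown list. All 5 had an OE-high Fbxl19 summit within 1 kb of an end. Next among the domains in both knockdown lists was 61759000 to 61762399 on chromosome 9 (ES score 19.4), with 1 OE-high Fbxl19 and 2 Rnf20 peaks.

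The 8 longest day-4-absent domains had ES scores from 7.24 to 13.9 and differed in how much of them OE-high domains covered. The longest ran from 8074000 to 8326599 on chromosome 14 (252600 bp, ES score 7.85). OE-high domains covered 11.1% of it and no knockdown list had it. Likewise 4750200 to 4891999 on chromosome 14 (141800 bp, ES score 7.49) was covered to 20.6% and held no Fbxl19 or Rnf20 peak. The domain from 12127200 to 12366199 on chromosome 11 (239000 bp, ES score 8.30) held no peak of either protein, yet OE-high domains covered 82.5% of it and a knockdown domain of 233600 bp matched it. By contrast 22282800 to 22491199 on chromosome 14 (208400 bp, ES score 12.2) held 9 Rnf20 peaks and 1 OE-high Fbxl19 peak, and its largest-overlap OE-high partner scored 36.2. On chromosome 13 the domain from 66498400 to 66659399 (161000 bp, ES score 7.24) held 11 Rnf20 and 2 OE-high Fbxl19 peaks. The remaining 3 of the 8 longest lay within 1 stretch of chromosome 4, described below. None of the 8 had an OE-high Fbxl19 summit within 1 kb of an end.

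OE-high Fbxl19 peaks were less frequent in day-4-absent domains than in retained ones. They were found in 215 of the 393 (54.7%, interval 49.6 to 59.7), against 77.0% of retained domains (interval 75.1 to 78.8). Over all ES domains above 2000 bp it was 70.8%, and in the 142 ES domains that met neither the OE-high nor the day 4 list it was 28.2%. The difference between day-4-absent and retained domains was -22.3 points (interval -27.7 to -16.9), and -17.7 points after weighting for length. It was smallest in the shortest domains, 50.5% against 59.9% up to 4000 bp with overlapping intervals, and widest above 20000 bp, where 65% stood against 90.5%. The difference shrank to -5.95 points (interval -11.5 to -0.729) when the OE-high and day 4 lists were cut to the size of the ES list. Fbxl19 and H2Bub1 were both mapped in cells labelled OE-high. The OE-high partners of day-4-absent domains also had a lower median H2Bub1 rank, given above. The part of that rank in the Fbxl19 difference was not tested.

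Fbxl19 peaks that did lie in day-4-absent domains scored close to those in retained domains. The 298 OE-high peaks in them had a median first score of 10.7, at the 51.1st percentile of that list, against 11.1, at the 55.5th percentile, for 2434 peaks in retained domains. Per Mb of domain there were 40.7 such peaks in day-4-absent domains and 51.2 in retained domains. The highest single score, 35.1, belonged to a peak in the domain from 87774000 to 87864999 on chromosome 12 (91000 bp, ES score 10.01), which held 10 OE-high Fbxl19 peaks, 5 OE-low peaks and 5 Rnf20 peaks. It lay 176 kb from the nearest day 4 domain and was listed over 100600 bp in knockdown ES cells. Peaks next in score lay in 119049200 to 119106799 (score 30.8) and 64110200 to 64127799 (score 29.1) on chromosome 14. The others were in 84732600 to 84736399 (score 29.6) and 96210800 to 96215599 (score 27.0) on chromosome 16. Of these 5 domains, 2 were on the ES knockdown list and none on the differentiated knockdown list.

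OE-low Fbxl19, the clone below the endogenous level, gave the same direction with less certainty. An OE-low peak lay in 42 of the 393 (10.7%, interval 7.81 to 14.2), against 17.5% of retained domains (interval 15.8 to 19.2), and in 15.8% of all ES domains over 2000 bp. The difference of -6.79 points (interval -10.2 to -2.94) was -1.38 points (interval -5.05 to 2.70) when 50% of a domain had to be covered to count as shared, and -2.87 points (interval -7.31 to 2.01) with lists of the same size. Among only the higher-scoring 50% of ES domains its interval, -10.6 to 0.988, also took in 0.

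Fbxl19 was also less often at the ends of day-4-absent domains. An OE-high summit lay within 1 kb of an end in 147 of the 393 (37.4%, interval 32.6 to 42.4), against 61.3% of retained domains (interval 59.1 to 63.4) and 55.2% of all ES domains over 2000 bp. The difference was -23.9 points (interval -29.1 to -18.4), and -23.6 points after weighting for length. In domains up to 4000 bp these margins take in much of the domain. The difference was -11.4 points with lists of the same size and -15.0 points with the higher-scoring 50% of Fbxl19 peaks. In domains over 20000 bp 26.3% of the day-4-absent domains had such a summit, against 60.7% of retained domains. Left and right ends had it alike, with 72 day-4-absent domains at the left end only, 71 at the right end only and 4 at both. Among the summits inside a domain, the share within 1 kb of an end was 41.5% in day-4-absent domains (interval 35.5 to 47.8) and 44.4% in retained domains (interval 42.2 to 46.5). These summit shares were not matched for domain length, which was shorter in day-4-absent domains.

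**Figure D3:**
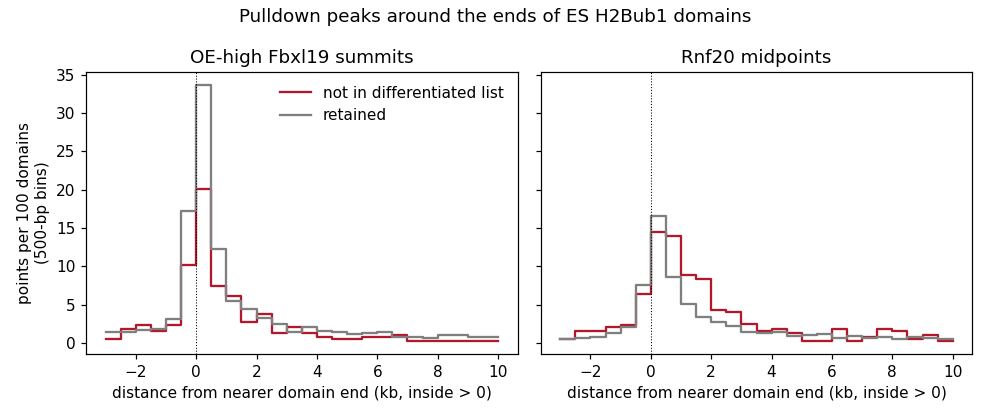
Distance of OE-high Fbxl19 summits (left) and Rnf20 peak midpoints (right) from the nearer end of an ES domain (horizontal, kb, inside positive), as points per 100 domains in bins of 500 bp, for day-4-absent (red) and retained domains (grey). In the first 500 bp inside, Fbxl19 has 20.1 summits per 100 day-4-absent domains and 33.7 per 100 retained domains, while Rnf20 has 14.5 and 16.6, and farther in, up to 3 kb, the red Rnf20 line is the higher one.

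Rnf20 behaved otherwise, with a share of domains that did not separate both sets and more peaks per Mb in day-4-absent domains. An Rnf20 peak lay in 145 of the 393 (36.9%, interval 32.1 to 41.9), against 41.4% of retained domains (interval 39.2 to 43.6) and 40.1% of all ES domains over 2000 bp. The difference of -4.49 points (interval -9.75 to 0.944) was -0.193 points after weighting for length, 2.30 points under the 50% overlap rule and 3.88 points among higher-scoring ES domains, so its direction was not settled. It was -6.64 points (interval -12.1 to -0.995) without the windows of 5 Mb that hold 7 or more day-4-absent domains, an alternative added after the values were seen. Yet 383 Rnf20 peaks lay in the 7.32 Mb of day-4-absent domains, 52.3 per Mb, against 1599 peaks and 33.7 per Mb in retained domains, a ratio of 1.55. This ratio was not weighted for length, although day-4-absent domains were shorter at the median. With a minimum of 5000 bp it was 1.41. The top 10 domains held 101 of the 383 overlaps (26.4%), against 10.9% for the top 10 retained domains, and the ratio was 1.84 without the windows just named. The ratio turned to 0.974, and the difference in share was -13.1 points, when the differentiated knockdown list took the place of the day 4 list in the rule. The Rnf20 peaks in day-4-absent domains had a median score of 92.1, at the 72.4th percentile of that list, against 78.8, at the 63.5th percentile, in retained domains. All Rnf20 values rest on a single library.

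Rnf20 without OE-high Fbxl19, and neither of these, were the combinations more frequent in day-4-absent than in retained domains. They were not particular to this set. In the 142 ES domains that met neither the OE-high nor the day 4 list, the former stood at 21.8% (interval 15.3 to 29.5). The latter stood at 50% there (interval 41.5 to 58.5). In these combinations, here and below, Fbxl19 means the OE-high list only. A domain with an OE-low peak and no OE-high peak counts as without Fbxl19. Rnf20 without OE-high Fbxl19 was found in 55 of the 393 (14.0%, interval 10.7 to 17.8), against 3.69% of retained domains (interval 2.90 to 4.60) and 6.29% of all ES domains over 2000 bp. The difference was 10.3 points (interval 6.91 to 14.2), 9.90 after weighting for length and 9.09 on autosomes alone. It narrowed to 4.49 points (interval 1.65 to 7.97) with lists of the same size. This combination was picked out after its values were seen. Both proteins together were found in 90 day-4-absent domains (22.9%) against 37.7% of retained and 33.8% of all ES domains over 2000 bp. Fbxl19 alone was found in 125 (31.8%) against 39.3% of retained and 37.0% of all, and neither in 123 (31.3%) against 19.3% of retained and 22.9% of all. Put the other way, 62.1% of the day-4-absent domains with Rnf20 also held OE-high Fbxl19 (interval 53.6 to 70.0), against 91.1% of the retained domains with Rnf20 (interval 88.9 to 92.9). The 55 domains with Rnf20 only were spread over 18 of 20 chromosomes, 7 of them on X. Of the 55, 39 held at least 2 Rnf20 peaks and 26 (47.3%, interval 33.7 to 61.2) were on the ES knockdown list. That interval takes in the 37.9% of all day-4-absent domains and the 55.5% of all ES domains over 2000 bp. Neither count was taken for the 74 retained domains with Rnf20 only.

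**Figure D4:**
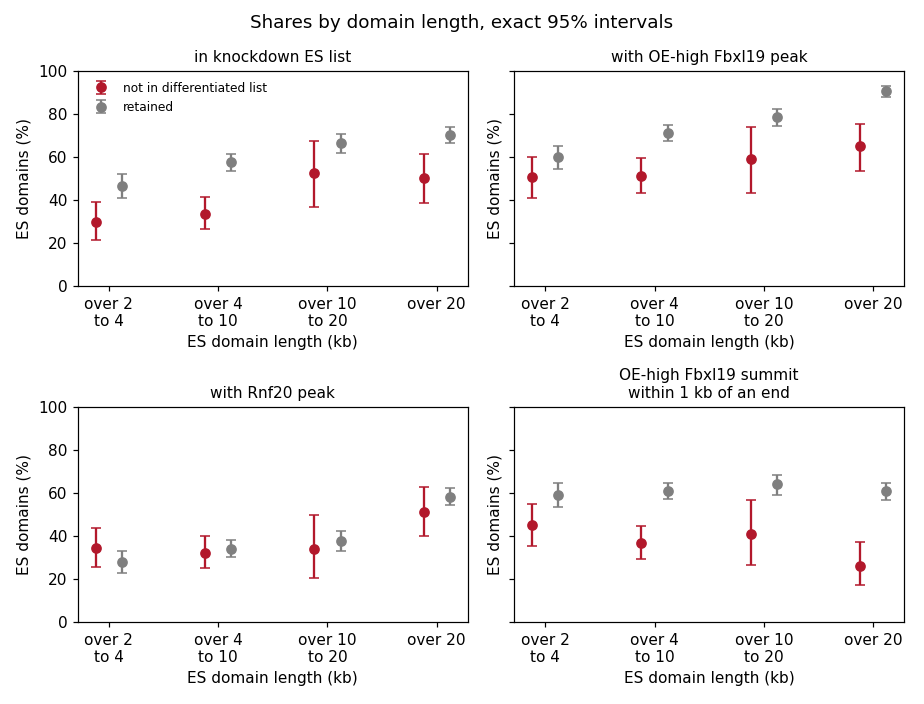
Shares of ES domains (vertical axis, percent) on the ES knockdown list, with an OE-high Fbxl19 peak, with an Rnf20 peak and with an OE-high Fbxl19 summit within 1 kb of an end, in 4 classes of domain length (horizontal, kb), for day-4-absent (red) and retained domains (grey) with exact 95% intervals. The red points lie under the grey ones in each class for all but Rnf20, where 34.2% of the shortest day-4-absent domains stand against 27.8% of the shortest retained domains.

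Domains with an Rnf20 peak and Fbxl19 peaks of both clones numbered 24 of the 393 (6.11%), against 11.7% of retained domains and 10.4% of all ES domains over 2000 bp. The highest-scoring was the chromosome 9 domain at 78325200 already described. Next came 145695000 to 145771399 on chromosome 4 (76400 bp, ES score 17.5), whose OE-high and knockdown partners had the very same ends, with scores of 17.2 in OE-high and 17.1 in knockdown cells. The domain from 67556400 to 67599599 on chromosome 10 (ES score 17.3) was listed with nearly the same ends in OE-high and knockdown cells, and its nearest day 4 domain lay 545 kb off. The other leading ones, 146115200 to 146149199 (ES score 17.2, 7 Rnf20 peaks) and 147006400 to 147026399 (ES score 16.1, 2 Rnf20 peaks), both lay on chromosome 4.

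Day-4-absent domains were not spread evenly over the genome. Of the ES domains over 2000 bp in the OE-high list, the share absent at day 4 was 80% on chromosome X (16 of 20, interval 56.3 to 94.3), against 15.8% over all autosomes (interval 14.4 to 17.4). Among autosomes it was highest on chromosomes 13 (31.9%, interval 22.5 to 42.5) and 14 (31.0%, interval 23.0 to 39.8), and lowest on chromosomes 2 (6.67%, interval 3.09 to 12.3) and 11 (7.42%, interval 4.86 to 10.8), around a median of 16.5%. The day 4 list had few domains on X at all, 27 of 5125 (0.527%), against 61 of 7216 in OE-high (0.845%) and 41 of 2937 in ES cells (1.40%). Just 1 of the 16 X domains held an OE-high Fbxl19 peak and 8 held an Rnf20 peak, while 3 were on the ES knockdown list. Of all ES domains over 2000 bp these shares were 70.8%, 40.1% and 55.5%. They were not counted for the retained domains on X, so these traits cannot be assigned to the day-4-absent domains there. The Rnf20 list had 271 peaks on X (3.15% of the list) and the OE-high Fbxl19 list 52 (0.380%). J1 is a male line. Leaving out X changed the direction of none of the differences between all day-4-absent and all retained domains that were recomputed on autosomes, namely those in median length and score, both knockdown lists, both Fbxl19 lists, Fbxl19 at an end, Rnf20 and Rnf20 without Fbxl19.

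**Figure D5:**
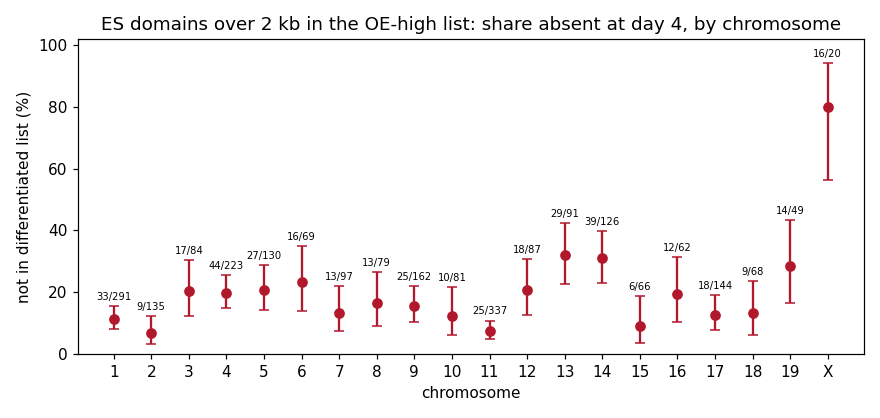
Share of ES domains over 2000 bp in the OE-high list that were absent from the day 4 list (vertical axis, percent), by chromosome (horizontal axis), with exact 95% intervals and the counts above each point. Chromosome X stands at 80% and the autosomes lie between 6.67% and 31.9%.

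Some day-4-absent domains were neighbours in the order of ES domains along a chromosome. Of the 393, 219 stood alone between other ES domains over 2000 bp, and 174 fell into 68 runs of at least 2 neighbours. Runs were counted without a limit of distance, and the number to expect without clustering was not computed. Another ES domain of any length lay within 10 kb of 18.6% of day-4-absent domains (interval 14.9 to 22.8). For retained domains it was 15.8% (interval 14.2 to 17.5), so the intervals overlapped. The longest run took in 10 successive ES domains from 4201000 to 6124999 on chromosome 14, which covered 895 kb of a span of 1924 kb. OE-high domains covered only from 11.1% to 33.0% of each of these 10 domains. None of the 10 would have met the stricter coverage rule recomputed below. The run's scores were low, from 7.19 to 9.17. None of the 10 was on the ES knockdown list, 3 held an OE-high Fbxl19 peak and none an Rnf20 peak. A run of 6 from 65774600 to 66695799 on chromosome 13 differed in this, with 5 domains holding Rnf20, 2 holding OE-high Fbxl19, 3 on the knockdown list and scores up to 15.7. Another run of 6 on chromosome X reached over 36359 kb and was thus no local cluster.

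By windows of 5 Mb, the stretch of chromosome 4 from 145000001 to 150000000 held the most, 13 day-4-absent domains beside 17 retained ones. There 12 of the 13 held an Rnf20 peak, 7 an OE-high Fbxl19 peak and 11 were on the ES knockdown list. Of all ES domains over 2000 bp these shares were 40.1%, 70.8% and 55.5%. They were not counted for the 17 retained domains of the window, so these traits cannot be assigned to the day-4-absent domains there. It includes 146601800 to 146788599 (186800 bp, ES score 13.9), with 17 Rnf20 peaks, the most of any day-4-absent domain, 7 OE-high and 4 OE-low Fbxl19 peaks, and an OE-high partner over the same span. Beside it lay 145163800 to 145337999 (174200 bp, 9 Rnf20 peaks) and 144993200 to 145158799 (165600 bp, 6 Rnf20 peaks), which starts just left of the window. Chromosome 14 from 5000001 to 10000000 held 12 beside 4 retained domains, with Rnf20 in 3 and 1 on the ES knockdown list. It takes in part of the longest run, whose domains OE-high domains covered only in minor part. Whether reads in such clusters could be placed uniquely was not examined here, and the part of mapping in these calls was not tested. Without the windows holding 7 or more, 354 domains were left, and the OE-high Fbxl19 difference was -20.9 points and that for Rnf20 without Fbxl19 9.07 points.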

How the data were processed

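ChIP-seq lists of 8 groups were read as deposited, on mm9 per the submitters' processing notes, which also name BWA 0.5.9-r16 and MACS with no role per list. The 5 H2Bub1 lists have BCP (a broad-domain caller) in their track names, per the file headers, and hold a domain score deposited by the authors and the length in bp. The Fbxl19 lists carry 2 deposited peak scores of the authors, of which the first was used, and the Rnf20 list has names beginning with MACS and a deposited score. Calling thresholds were not found in labels or headers, replicates were combined except for Rnf20, and neither depth nor counts per sample were used.

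Groups came from the sample titles. Starts were read as counted from 0, those of the Fbxl19 lists from 1, and positions are printed from 1. Overlap meant at least 1 bp. Differences of shares carry an interval that adds both exact 95% intervals in squares, and medians an order-statistic interval. Length weighting averaged retained shares over 4 length classes cut at the quartiles of the day-4-absent domains. No p-value was computed. The domains, comparisons and alternatives were chosen with earlier results of these data known. Named are the 8 longest domains, the 5 highest by ES score, by Fbxl19 peak score and among those with Rnf20 and both Fbxl19 clones, the 3 highest in both knockdown lists, the 3 on either side of each limit, and leading runs and windows. The gene table at hand is of GRCm38, so no gene, promoter or sequence was assigned. Overlap code was tested on simulated data. Python 3.11.15, NumPy 2.4.6, pandas 2.3.3, SciPy 1.17.1 and matplotlib 3.10.9 were used.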

Additional observations from a re-analysis of the deposited data

How the results depend on the processing

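Each result was recomputed under up to 14 alternatives, and 127 of the 165 values stayed within the interval of the reported value, or within 1.5 times for counts and ratios. Differences below are day-4-absent minus retained domains, in percentage points unless stated. With 50% of the domain covered to count as shared, the difference was -22.3 for the differentiated knockdown list, -15.2 for OE-high Fbxl19, -1.38 for OE-low Fbxl19, 2.30 for Rnf20 and -3600 bp in median length. A minimum of 5000 bp left 238 domains and a differentiated knockdown difference of -36.3. The higher-scoring 50% of ES domains left 178, with 51.7% on the ES knockdown list and differences of -42.0 for the differentiated knockdown, 3.88 for Rnf20, 18.0 for Rnf20 without Fbxl19 and -3400 bp in length.

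With the OE-high and day 4 lists cut to the size of the ES list, 57.4% were on the ES and 13.0% on the differentiated knockdown list. The differences were then -11.6 for the ES knockdown, -5.95 for OE-high Fbxl19, -2.87 for OE-low Fbxl19, 1.57 for Rnf20, -11.4 for Fbxl19 at an end, 4.49 for Rnf20 without Fbxl19 and -3000 bp in length. With the higher-scoring 50% of the peak and knockdown lists, the knockdown shares were 19.1% and 1.53% and the differences -15.5 for the ES knockdown, -17.2 for the differentiated knockdown and -15.0 for Fbxl19 at an end. Length weighting gave -29.1 for the differentiated knockdown.

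With the differentiated knockdown list in place of the day 4 list, 1648 domains met the rule, 47.9% of them on the ES knockdown list. The differences were -31.4 for the ES knockdown, -12.7 for OE-high Fbxl19, -13.1 for Rnf20, -12.2 for Fbxl19 at an end, 2.60 for Rnf20 without Fbxl19, -6600 bp in length and -1.79 in ES score, and the ratio of Rnf20 peaks per Mb turned to 0.974. The cause of these shifts was not tested. Leaving out the clustered windows, and the results on Rnf20 without Fbxl19 and on peaks per Mb, were added after seeing the data. No paired analysis was possible because the lists combine the replicates, and for the same reason no replicate could be left out. Lists carry no depth, so a domain under the calling threshold cannot be told from one without H2Bub1.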
